A study of Homo sapiens with 30 samples.

Results

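Knockdown of NELF-C was set against knockdown of NELF-A, another subunit of the same protein complex, in T47D cells. The members are the 3 gene-level arrays labelled siNELF-C and the 3 labelled siNELF-A, 6 of the 15 gene-level arrays in the series. T47D, an established line from human breast cancer, is of luminal type and carries oestrogen receptor. The cells were grown in DMEM with 10% FBS. They received 10 nM of siRNA with the RNAiMAX reagent, had their medium replaced after 48 hours and were harvested 48 hours after that. The siNELF-C group received siRNA against NELF-C and the siNELF-A group siRNA against NELF-A. Control cells received a control siRNA, and their 3 arrays are given beside some genes as a description with no test. Total RNA (1 ug) was freed of ribosomal RNA with RiboMinus, and labelled cDNA made from it was put on Affymetrix exon arrays. The 3 arrays of a condition are technical repeats by the series text, so every p-value below measures the spread between such repeats and not between separate transfections. Levels are log2 values of the robust multi-array average (RMA), in which 1 unit is a doubling, and they come from bulk RNA, so that a change in every cell and a change in some cells cannot be told apart.

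Negative elongation factor, NELF, is a complex that holds RNA polymerase II in a paused state shortly after it has begun a transcript. It acts together with the DSIF complex, and the kinase P-TEFb releases the pause by phosphorylating the polymerase, DSIF and NELF. The subunits are named A, B, C or D, and E; the C and D forms are products of 1 gene, NELFCD. In biochemical work NELF-A and NELF-C bind each other directly, whereas NELF-E carries an RNA-binding domain.

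Array to array, the gene-level profiles correlated at 0.985 to 0.988 (Pearson's r over 22011 transcript clusters) within siNELF-C and at 0.984 to 0.985 within siNELF-A, against 0.971 to 0.978 between a siNELF-C and a siNELF-A array. The interquartile range of the log2 values on siNELF-C arrays was 3.73, 3.61 and 3.75, and on siNELF-A arrays 3.91, 3.91 and 3.69. The ranges overlap, with siNELF-A replicate 3 inside the siNELF-C values.

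Of 22011 transcript clusters, 1795 (8.16%) were called between siNELF-C and siNELF-A, where a call needs a Benjamini-Hochberg adjusted p below 0.05 in limma and a difference of at least 1.5-fold. There were 516 clusters higher in siNELF-C cells (2.34%) and 1279 lower (5.81%). In each of the 1795 the 3 siNELF-C arrays lay wholly beyond the 3 siNELF-A arrays. With 3 arrays per group a call makes such separation likely, so it is no further evidence. The excess of lower over higher calls depended on the scaling of the arrays. As deposited, 28.7% of the calls were higher in siNELF-C, against 44.4% after quantile normalization, 41.6% after median centring with a common interquartile range and 51.6% after centring on the 75th percentile, a scaling that moved the median difference of all clusters to 0.11 where it was -0.02 as deposited. A fit on all 15 arrays made 631 calls, 266 higher and 365 lower (42.2% higher). Leaving out siNELF-C replicate 1, 2 or 3 left 724, 780 or 965 calls, and leaving out siNELF-A replicate 1, 2 or 3 left 1025, 882 or 1792. In all 6 of those fits 578 clusters were called with the same sign, 187 higher and 391 lower. The genes described first below are among these 578.

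**Figure D1:**
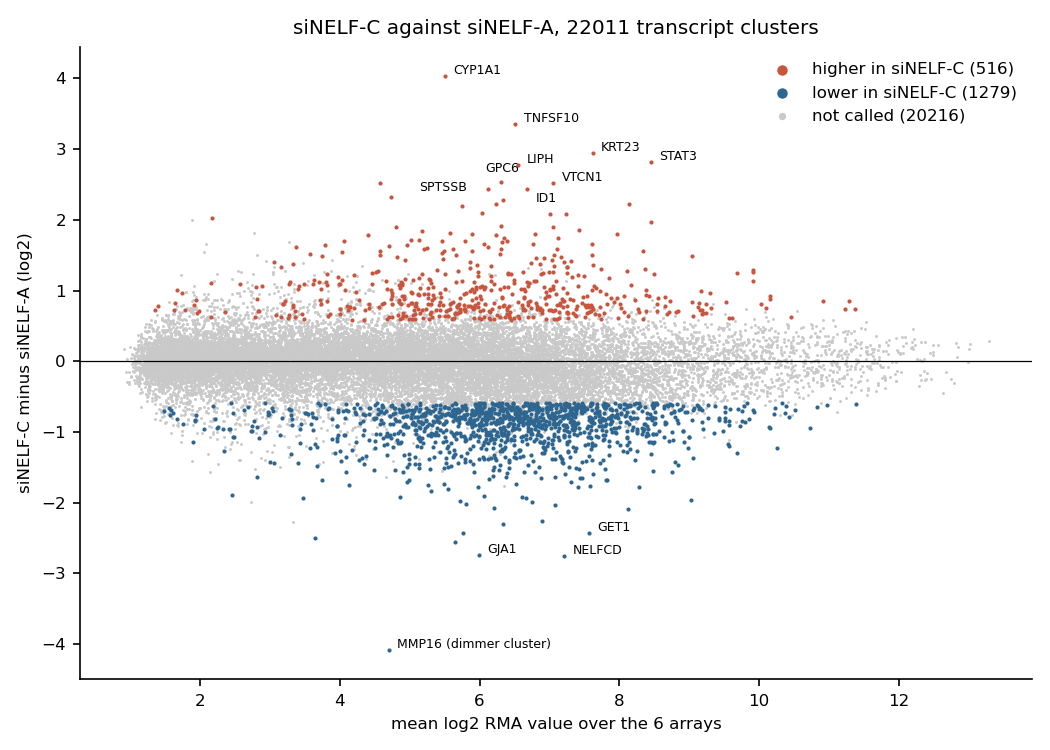
Each point is 1 of 22011 transcript clusters, with its mean log2 RMA value over the 6 arrays on the x axis and the siNELF-C minus siNELF-A difference (log2) on the y axis. Red marks the 516 clusters called higher in siNELF-C, blue the 1279 called lower and grey the rest, with CYP1A1 at 4.04 as the highest point.

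The knockdown target itself separated the groups. NELFCD (transcript cluster 3891278) read 5.92, 5.61 and 5.97 in siNELF-C cells and 8.87, 8.66 and 8.23 in siNELF-A cells. Control arrays read 9.33, 9.19 and 9.23, so both knockdowns lay below control, siNELF-C far below and siNELF-A slightly. The difference was -2.76 (SE 0.19), or 6.75-fold lower in siNELF-C cells (limma adjusted p = 0.00174). NELFA and NELFE have no gene-level cluster under their own symbol and are summarised here by medians over exon-level probe sets, tested with limma over the 16241 genes so summarised. NELFA, over 15 probe sets, read 6.44, 6.19 and 6.29 in siNELF-C cells and 5.39, 5.58 and 5.92 in siNELF-A cells, with 6.24, 6.14 and 6.34 in control cells. The groups do not overlap, and siNELF-A lies below both of the others, but the siNELF-C minus siNELF-A difference of 0.68 did not pass (limma adjusted p = 0.0572). NELFE, also over 15 probe sets, read 6.94, 6.65 and 6.71 in siNELF-C cells and 7.98, 8.20 and 7.42 in siNELF-A cells, with 7.29, 7.22 and 7.27 in control cells. Neither siRNA was aimed at NELFE, and its 2 knockdown groups lie on opposite sides of control, siNELF-C below and siNELF-A above (difference -1.10, limma adjusted p = 0.0131). NELFB is not analysed here.

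CYP1A1, a cytochrome P450 enzyme that oxidises polycyclic aromatic compounds and the best known target gene of the aryl hydrocarbon receptor, was the gene most raised in siNELF-C over siNELF-A cells. Its levels were 7.68, 7.46 and 7.43 in siNELF-C cells and 3.49, 3.81 and 3.15 in siNELF-A cells, beside 3.06, 2.89 and 2.75 in control cells. The siNELF-A and control arrays lie close together at the dim end of the array and the siNELF-C arrays stand alone. The difference was 4.04 (SE 0.19), 16.4-fold (limma adjusted p = 0.000536). AHR, the ligand-activated receptor itself, was also higher, at 8.02, 7.99 and 7.99 in siNELF-C cells and 6.46, 6.34 and 5.96 in siNELF-A cells, with 6.71, 6.92 and 7.03 in control cells. That is 3.35-fold (limma adjusted p = 0.00281), and the siNELF-A arrays lie below control while the siNELF-C arrays lie above it. All 6 measured genes of the list around this receptor had positive differences and 2 were called higher (median 0.58, against -0.02 over all clusters), or 4 after quantile normalization, interquartile scaling or 75th percentile centring. Its partner ARNT averaged 7.50 in siNELF-C cells and 6.95 in siNELF-A cells (limma adjusted p = 0.132), and CYP1B1, a related enzyme, differed by 0.61 (limma adjusted p = 0.109). Neither passed. The promoter of CYP1A1 is shown because the gene marks the far end of the comparison; it is the window from 250 bases before to 50 after the transcript start, RefSeq sequence on GRCh38.p14, chr15:74725479-74725778, minus strand. Capitals mark GCGTG, the core of the sequence bound by the receptor with ARNT, a motif chosen for display after the values were seen.
CYP1A1: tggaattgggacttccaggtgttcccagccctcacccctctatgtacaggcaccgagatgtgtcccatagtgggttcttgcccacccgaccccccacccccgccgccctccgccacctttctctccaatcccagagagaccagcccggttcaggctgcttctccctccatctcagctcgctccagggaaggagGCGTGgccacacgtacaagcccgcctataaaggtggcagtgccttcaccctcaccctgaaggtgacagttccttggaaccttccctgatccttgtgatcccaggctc
A single GCGTG lies in this window, starting at base -57 relative to the transcript start. The 5 letters, read on both strands, occur in 36.5% of 35116 such windows in RefSeq, so a match of this kind is common. A longer form of the core, TNGCGTG with N any letter, occurs in 5.51% of the windows and is absent from this one.

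TNFSF10, KRT23 and STAT3 followed CYP1A1. TNFSF10, the death ligand TRAIL, read 8.24, 7.95 and 8.37 in siNELF-C cells and 5.05, 4.92 and 4.54 in siNELF-A cells, with 6.68, 6.69 and 6.88 in control cells. The control arrays lie between the knockdowns, and the difference was 3.35 (10.2-fold, limma adjusted p = 0.000615). KRT23, a type I keratin, read 9.20, 9.02 and 9.06 against 6.16, 6.08 and 6.18 in siNELF-A cells (7.73-fold, limma adjusted p = 0.000535), with control again in between at 8.23, 8.07 and 8.14. STAT3, a transcription factor activated by cytokine receptors, read 9.94, 9.82 and 9.84 in siNELF-C cells and 7.17, 7.16 and 6.80 in siNELF-A cells (7.08-fold, limma adjusted p = 0.000536). Its control arrays read 9.47, 9.44 and 9.45 and its means in siNELF-B and siNELF-E cells were 9.12 and 9.83, so the siNELF-A arrays are the ones that stand apart.

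LIPH, a lipase that makes lysophosphatidic acid, read 8.11, 7.69 and 8.03 in siNELF-C cells and 5.31, 5.54 and 4.65 in siNELF-A cells (6.85-fold). GPC6, a cell-surface heparan sulphate proteoglycan, read 7.61, 7.50 and 7.64 and, in siNELF-A cells, 5.31, 4.97 and 4.86 (5.80-fold). Control arrays read 7.50, 7.34 and 7.60 for GPC6, which overlaps siNELF-C and lies well above siNELF-A. VTCN1, the immune checkpoint ligand B7-H4, showed the other arrangement. It read 8.43, 8.16 and 8.36 in siNELF-C cells and 5.91, 6.11 and 5.38 in siNELF-A cells (5.72-fold), with 5.27, 5.06 and 5.62 in control cells. Here the siNELF-C arrays stand apart, and siNELF-A and control overlap.

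The remaining 8 of the 15 highest differed by 3.93-fold to 5.42-fold. They were SPTSSB, a small subunit of serine palmitoyltransferase (2.44); ID1, an inhibitor of basic helix-loop-helix factors (2.44); SERPINI1, the protease inhibitor neuroserpin (2.32); EPAS1, the hypoxia-inducible factor HIF-2alpha (2.23); TGFB2, a transforming growth factor ligand (2.20); PIK3R3, a regulatory subunit of phosphoinositide 3-kinase (2.08); IGFBP5, an insulin-like growth factor binding protein (2.08); and TMEM45B, a transmembrane protein (1.98). The values in brackets are log2 differences. Each of the 15 was called in the limma fit, in all 6 fits that leave out 1 array and under every alternative scaling or fit tried.

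At the other end, by the brightest cluster of each symbol and after NELFCD, stood GJA1, the gap junction protein connexin 43. It read 4.80, 4.54 and 4.54 in siNELF-C cells and 7.44, 7.36 and 7.29 in siNELF-A cells, a 6.67-fold fall (limma adjusted p = 0.000536), with 6.64, 6.45 and 6.67 in control cells. GET1, a receptor at the endoplasmic reticulum for tail-anchored proteins, read 6.29, 6.33 and 6.42 in siNELF-C cells and 8.80, 8.69 and 8.86 in siNELF-A cells (5.40-fold lower), and here siNELF-A and control (8.58, 8.55 and 8.72) lie near each other. MMP16, a membrane-bound matrix metalloproteinase, has 2 clusters on the array. The brighter one read 5.29, 5.16 and 5.11 in siNELF-C cells and 7.49, 7.55 and 7.41 in siNELF-A cells (4.91-fold lower). The dimmer one, named after its values were seen, was also called lower (limma adjusted p = 0.00114), with no size given because its siNELF-C arrays lie about the 25th percentile of cluster means (2.69). It read 2.21, 2.97 and 2.79 in siNELF-C cells and 6.92, 6.36 and 6.96 in siNELF-A cells, with 5.43, 5.04 and 5.48 in control cells, between the knockdowns. Its 2 knockdown groups lie further apart than those of NELFCD or GJA1, but the ranking takes only the brightest cluster of a symbol.

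The other 11 of the 15 lowest had differences of -1.92 to -2.25. PRSS8, the serine protease prostasin (-2.25), UHMK1, a protein kinase with an RNA-recognition motif (-2.08), ZDHHC6, a palmitoyltransferase (-2.07), and SLC35D1, a nucleotide sugar transporter (-2.02), were each lower in siNELF-C cells. So were GPD1L, a relative of glycerol-3-phosphate dehydrogenase (-1.97), GRINA, a multipass membrane protein (-1.96), GPR63, an orphan G protein-coupled receptor (-1.93), NCEH1, a cholesterol ester hydrolase (-1.93), and SCIN, an actin-severing protein (-1.92). The siNELF-C arrays of GPR63 read 2.32, 2.39 and 2.82, at the dim end of the array, so the size of its difference is uncertain. LBR, the lamin B receptor of the inner nuclear membrane, read 5.94, 6.02 and 6.25 in siNELF-C cells and 8.11, 8.27 and 7.90 in siNELF-A cells (4.08-fold lower, limma adjusted p = 0.00196). ANXA1, a calcium-dependent phospholipid-binding protein, read 5.66, 5.65 and 5.97 in siNELF-C cells and 7.82, 7.66 and 7.76 in siNELF-A cells (3.96-fold lower). Its control arrays read 4.68, 4.31 and 4.71, below both knockdowns, so the gene was lower in siNELF-C than in siNELF-A cells while both stood above control. All 15 of the lowest kept their call in the 6 fits that leave out 1 array. They also kept it under the other alternatives, except that GPR63 was not among the clusters tested when those below the 40th percentile were left out and GJA1 has no exon-level value here.

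**Figure D2:**
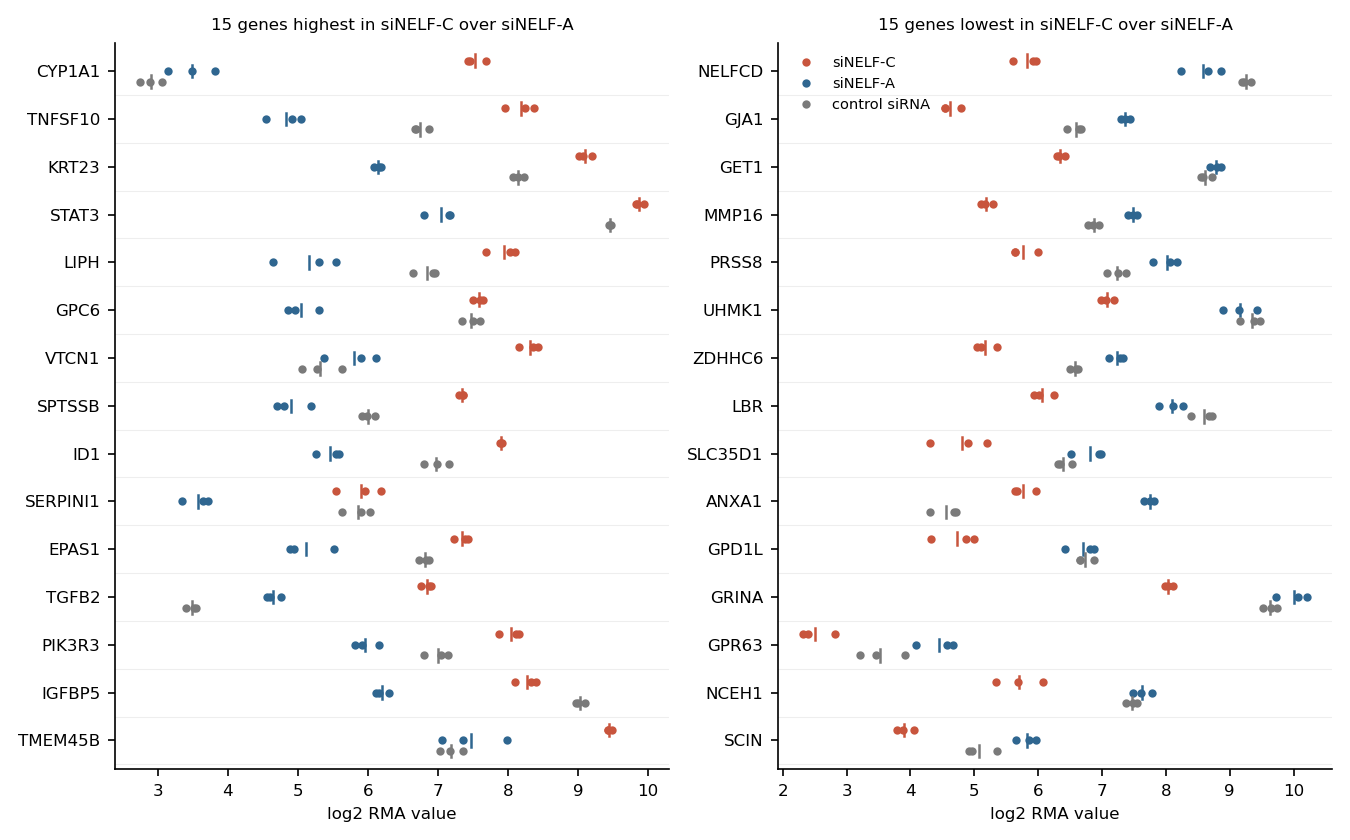
Log2 RMA value of each array (points) and group mean (ticks) for the 15 genes highest and the 15 lowest in siNELF-C over siNELF-A, with siNELF-C in red, siNELF-A in blue and control siRNA in grey. Red and blue never overlap, because the genes were chosen for that. The grey points lie beside them, between them or, as for ANXA1 (control 4.31 to 4.71) and IGFBP5 (control 8.98 to 9.09), beyond both.

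Placed against the control arrays, the 2 ends of the comparison were not alike. Among the 15 highest genes, the 3 siNELF-C arrays lay wholly above the 3 control arrays for 12 genes and wholly below for 1, whereas the siNELF-A arrays lay wholly below control for 11 and above for 2. Among the 15 lowest, the siNELF-C arrays lay wholly below control for 14 and above for 1, and the siNELF-A arrays above for 7, below for 2 and overlapping for 6. Over all 22011 clusters, the siNELF-C arrays lay wholly above control in 15.1% and wholly below in 31.3%, and the siNELF-A arrays wholly above in 12% and wholly below in 22.5%. These counts are a description of levels, since the same arrays chose the genes.

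Part of the cell division machinery was lower in siNELF-C cells. Of 52 measured genes of the mitosis list, 17 were called lower and 0 higher in limma, where 5.81% of all clusters were called lower, and the median difference was -0.53 against -0.02 over all clusters. At an unadjusted p below 0.05, 33 were lower and 1 higher. That threshold was passed by 5381 of all 22011 clusters in either direction, which is the background for every unadjusted count below. SPC25, a subunit of the NDC80 complex that ties kinetochores to microtubules, read 3.12, 2.73 and 3.02 in siNELF-C cells and 4.14, 4.41 and 4.01 in siNELF-A cells, with 4.90, 5.43 and 5.95 in control cells. CENPF, a kinetochore protein, read 6.26, 6.25 and 6.41 in siNELF-C cells and 7.14, 7.04 and 7.22 in siNELF-A cells, with 7.79, 7.96 and 8.15 in control cells. Both genes step down across these groups, control highest, siNELF-A between and siNELF-C lowest, without overlap. The falls were 2.35-fold for SPC25 (limma adjusted p = 0.00769) and 1.77-fold for CENPF (limma adjusted p = 0.00857). CDK1, the kinase that drives entry into mitosis, was 1.83-fold lower (limma adjusted p = 0.0162), but lost its call without siNELF-C replicate 1 (adjusted p = 0.0647), siNELF-C replicate 2 (0.0631) or siNELF-A replicate 1 (0.0557). The proliferation marker MKI67, named after its values were seen, averaged 5.80 in siNELF-C and 5.71 in siNELF-A cells (limma adjusted p = 0.671) and 7.42 in control cells.

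The number of mitosis calls varied with the arrays used. Without siNELF-C replicate 1, 2 or 3 there were 4, 4 or 8 lower calls, and without siNELF-A replicate 1, 2 or 3 there were 6, 4 or 12. In all 6 fits SPC25 and CENPF were called, and a fit on 15 arrays called 1 member of the list. The median stayed below 0 under quantile normalization (-0.44), 75th percentile centring (-0.40) and interquartile scaling (-0.43), with 12, 8 and 16 lower calls and 0 higher in each.

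Of 44 DNA replication genes, 12 were lower and 0 higher (median -0.47), and at an unadjusted p below 0.05 limma gave 24 lower and 0 higher. DTL, the substrate receptor of a ubiquitin ligase that acts on chromatin in S phase, read 6.95, 6.73 and 7.24 in siNELF-C cells and 8.26, 8.41 and 7.97 in siNELF-A cells, with 8.73, 8.81 and 8.90 in control cells. That is 2.36-fold lower (limma adjusted p = 0.0102). PRIM1, the catalytic subunit of primase, was 1.86-fold lower (limma adjusted p = 0.0105). Leaving out siNELF-C replicate 1, 2 or 3 left 4, 2 or 6 lower calls, and leaving out siNELF-A replicate 1, 2 or 3 left 4, 2 or 11; DTL and PRIM1 were called in each of these fits, and 1 member in the fit on 15 arrays. Among genes of recombination and crosslink repair, 6 of 23 were lower and 0 higher (median -0.54), with 12 lower and 0 higher at an unadjusted p below 0.05. BRCA1, a homologous recombination factor, read 4.54, 4.49 and 4.71 in siNELF-C cells and 5.77, 5.53 and 5.82 in siNELF-A cells (2.18-fold lower, limma adjusted p = 0.00566). FANCM, a DNA translocase of the Fanconi pathway, read 4.42, 4.45 and 4.47 and, in siNELF-A cells, 5.36, 5.43 and 5.30 (1.88-fold lower). Those 2 genes were called without any 1 array, when the count was 2, 2 or 4 without siNELF-C replicate 1, 2 or 3 and 4, 3 or 5 without siNELF-A replicate 1, 2 or 3. The fit on 15 arrays called no member of this list.

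The promoters of 3 of these genes are shown for the letters they share. Each is RefSeq sequence on GRCh38.p14 over the same window, SPC25 at chr2:168890381-168890680 on the minus strand, CENPF at chr1:214602945-214603244 on the plus strand and DTL at chr1:212035498-212035797 on the plus strand. Capitals mark the cell cycle homology region TTTGAA in SPC25 and CENPF, the CCAAT box (CCAAT or, on the other strand, ATTGG) in all 3, and the E2F-like letters TTTGGCGC and TTTGGCGG in DTL.
SPC25: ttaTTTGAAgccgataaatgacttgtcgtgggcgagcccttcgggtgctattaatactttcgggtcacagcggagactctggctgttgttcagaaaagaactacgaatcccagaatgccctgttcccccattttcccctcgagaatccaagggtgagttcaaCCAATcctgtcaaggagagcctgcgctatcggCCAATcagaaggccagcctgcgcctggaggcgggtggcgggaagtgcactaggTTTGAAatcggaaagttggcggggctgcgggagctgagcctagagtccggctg
CENPF: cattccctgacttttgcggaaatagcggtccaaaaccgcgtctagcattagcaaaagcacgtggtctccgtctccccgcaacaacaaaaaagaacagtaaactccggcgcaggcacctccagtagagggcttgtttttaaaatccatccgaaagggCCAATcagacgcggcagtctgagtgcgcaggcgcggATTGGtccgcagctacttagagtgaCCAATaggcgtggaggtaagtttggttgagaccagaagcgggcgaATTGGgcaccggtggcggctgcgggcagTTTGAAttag
DTL: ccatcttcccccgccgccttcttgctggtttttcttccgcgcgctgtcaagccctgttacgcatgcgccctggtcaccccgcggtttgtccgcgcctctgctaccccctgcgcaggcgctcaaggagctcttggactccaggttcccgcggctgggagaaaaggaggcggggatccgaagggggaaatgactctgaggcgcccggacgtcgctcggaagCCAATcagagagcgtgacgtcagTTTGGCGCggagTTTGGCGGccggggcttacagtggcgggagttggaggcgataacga
In SPC25 the letters TTTGAA begin at bases -247 and -3 relative to the start, and the 2 CCAAT boxes at -88 and -56. CENPF holds 4 CCAAT boxes, in either strand, and TTTGAA at base 40. DTL holds 1 CCAAT box at -31 and E2F-like letters at -8 and 4. Searched on both strands, TTTGAA occurred in 73.3% of 15 windows of the called mitosis genes and 53.5% of 43 windows of the mitosis genes not called, against 15.2% of all 35116 windows. CCAAT occurred in 73.3%, 67.4% and 34.6% of the same sets. The E2F-like letters (TTTGGCGC, TTTCCCGC, TTTGGCGG or TTTCCCGG) occurred in 63.6% of 11 windows of the called DNA replication genes, 43.8% of 32 windows of those not called and 4.31% of all windows. The letters were frequent in called and uncalled members alike, and a match is a description of the sequence. These motifs do not overlap each other in the windows shown.

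Proteasome, respiratory chain and cholesterol genes were also called lower. Of 24 proteasome subunits measured, 12 were called lower and 0 higher (median -0.58), 22 had a negative difference, and at an unadjusted p below 0.05 limma gave 18 lower and 0 higher. PSMB6, a catalytic subunit of the core particle, read 7.39, 7.34 and 7.46 in siNELF-C cells and 8.58, 8.58 and 8.46 in siNELF-A cells, with 8.28, 8.18 and 8.23 in control cells. PSMB1, another core subunit, read 7.50, 7.21 and 7.54 in siNELF-C cells and 8.65, 8.55 and 8.61 in siNELF-A cells, with 8.49, 8.29 and 8.79 in control cells. For both subunits siNELF-A lay at or above control and siNELF-C below it, by 2.21-fold and 2.28-fold against siNELF-A (limma adjusted p = 0.00305 and 0.00466). The count was 2, 3 or 7 without siNELF-C replicate 1, 2 or 3 and 3, 7 or 11 without siNELF-A replicate 1, 2 or 3, with PSMB1 and PSMB6 in all, and it was 1 in the fit on 15 arrays. Median centring gave 11 lower calls, quantile normalization and interquartile scaling 8 each and 75th percentile centring 7.

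Subunits of oxidative phosphorylation gave 10 lower calls and 0 higher among 39 (median -0.50), 37 of the 39 differences were negative, and 25 were lower and 0 higher at an unadjusted p below 0.05. COX7A2, a subunit of cytochrome c oxidase, read 6.94, 7.11 and 7.04 in siNELF-C cells and 8.37, 8.39 and 8.90 in siNELF-A cells (2.87-fold lower, limma adjusted p = 0.00504). NDUFB5 and NDUFA6, both subunits of complex I, were 1.91-fold and 1.83-fold lower. These 3 were called in every fit without 1 array, where the count was 3, 4 or 4 without siNELF-C replicate 1, 2 or 3 and 3, 6 or 9 without siNELF-A replicate 1, 2 or 3, and the fit on 15 arrays called 3. Median centring gave 13 lower calls, quantile normalization and interquartile scaling 7 each and 75th percentile centring 6. In cholesterol synthesis, 5 of 17 genes were lower and 0 higher (median -0.50), with 10 lower and 1 higher at an unadjusted p below 0.05. HMGCS1, the synthase that makes HMG-CoA, read 6.25, 6.16 and 6.54 in siNELF-C cells and 7.51, 7.62 and 7.58 in siNELF-A cells, with 7.44, 7.57 and 7.64 in control cells. Between these 2 knockdowns only siNELF-C departs from control. INSIG1, which retains the SREBP regulators in the endoplasmic reticulum, was 2.67-fold lower and SQLE, squalene epoxidase, 1.99-fold. Without siNELF-C replicate 1, 2 or 3 the list gave 4, 3 or 3 lower calls and without siNELF-A replicate 1, 2 or 3 it gave 3, 3 or 7, with HMGCS1, INSIG1 and SQLE in each, and the fit on 15 arrays called 1.

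**Figure D3:**
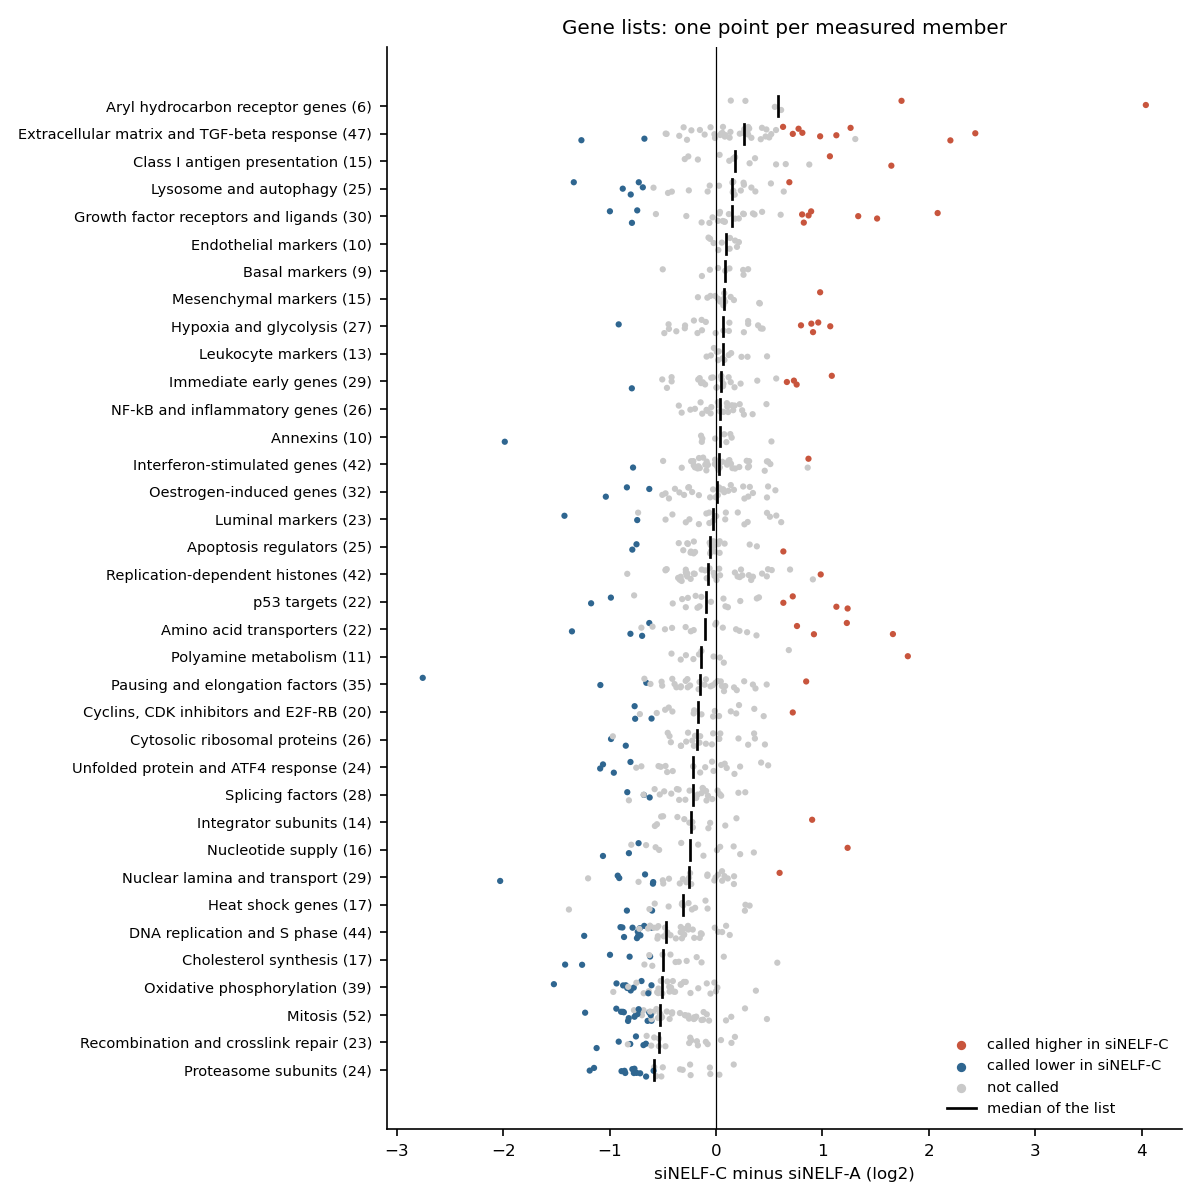
Difference between siNELF-C and siNELF-A (log2, x axis) of every measured member of the 36 gene lists, with the number measured in brackets, the list median as a black tick and calls in red (higher) or blue (lower). Lists are ordered by median, from the aryl hydrocarbon receptor genes (0.58) to the proteasome subunits (-0.58).

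Matrix and growth factor genes had more higher than lower calls. In the extracellular matrix and TGF-beta list, 9 of 47 were called higher and 2 lower (median 0.27), where 2.34% of all clusters were called higher. TGFB2 read 6.87, 6.75 and 6.91 in siNELF-C cells and 4.76, 4.56 and 4.61 in siNELF-A cells, with 3.55, 3.41 and 3.53 in control cells, a rank order with control lowest. ID1, a target of BMP signalling, read 7.91, 7.88 and 7.90 in siNELF-C cells and 5.58, 5.54 and 5.25 in siNELF-A cells, with 7.16, 6.80 and 6.99 in control cells between them. LAMB1, a laminin chain of basement membranes, was 2.40-fold higher, FN1, fibronectin, 1.97-fold and TGFB3, another ligand, 1.71-fold. FN1 stood below control in both knockdowns, at 4.74, 4.51 and 4.90 in siNELF-C cells and 3.84, 3.77 and 3.60 in siNELF-A cells, against 5.54, 5.66 and 5.89 in control cells. Of the list, 13 differences were negative. ITGA2, the integrin subunit of a collagen receptor, was 2.40-fold lower (limma adjusted p = 0.00744). Leaving out siNELF-C replicate 1, 2 or 3 left 5, 6 or 5 higher calls and leaving out siNELF-A replicate 1, 2 or 3 left 6, 7 or 7; the fit on 15 arrays gave 7. Quantile normalization gave 14 higher calls in this list, 75th percentile centring 15, interquartile scaling 12 and median centring 10.

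Among growth factor receptors and ligands, 7 of 30 were higher and 3 lower (median 0.15). IGF1R, the receptor for insulin-like growth factors, read 7.92, 7.94 and 7.91 in siNELF-C cells and 6.89, 6.62 and 6.26 in siNELF-A cells (2.52-fold, limma adjusted p = 0.00700), with 7.86, 7.65 and 7.82 in control cells. IGFBP5 read 8.40, 8.10 and 8.33 in siNELF-C cells and 6.12, 6.31 and 6.16 in siNELF-A cells, with 8.98 to 9.09 in control cells. For both genes the siNELF-A arrays are the low ones. IGFBP2 was 1.83-fold higher and ERBB4, a receptor of the EGF receptor family, 1.86-fold. ERBB2, of the same family, was 1.75-fold higher (limma adjusted p = 0.0134) and ERBB3 1.67-fold lower (limma adjusted p = 0.0273). TGFA, a ligand of the EGF receptor, read 4.71, 4.63 and 4.80 in siNELF-C cells and 5.49, 5.55 and 5.47 in siNELF-A cells (1.73-fold lower, limma adjusted p = 0.00847). ERBB2 lost its call without siNELF-C replicate 1 (adjusted p = 0.0571) or siNELF-A replicate 2 (0.0511), and ERBB3 kept its call when siNELF-A replicate 3 was left out but lost it without any other array (adjusted p = 0.0561 to 0.0922). The higher calls of the list numbered 5, 6 or 5 without siNELF-C replicate 1, 2 or 3 and 7, 5 or 7 without siNELF-A replicate 1, 2 or 3.

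SAT1, which acetylates spermidine and spermine for export or breakdown, read 8.74, 8.96 and 8.88 in siNELF-C cells and 6.71, 7.02 and 7.44 in siNELF-A cells (3.49-fold, limma adjusted p = 0.00454), with 6.45, 6.32 and 6.53 in control cells. It was the 1 called gene of 11 in polyamine metabolism. SLC6A6, the taurine transporter, read 8.50, 8.46 and 8.37 in siNELF-C cells and 7.09, 6.92 and 6.33 in siNELF-A cells (3.16-fold), and control arrays at 8.45, 8.43 and 8.38 coincide with siNELF-C. SLC38A2, a transporter of small neutral amino acids, was 1.89-fold higher, whereas SLC38A9, a lysosomal amino acid sensor, was 2.55-fold lower. In all, 4 of 22 amino acid transporters were higher and 4 lower. Without siNELF-C replicate 1, 2 or 3 there were 2, 2 or 2 higher and 1, 2 or 1 lower, and without siNELF-A replicate 1, 2 or 3 there were 3, 2 or 3 higher and 2, 1 or 5 lower.

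In the hypoxia and glycolysis list 5 of 27 were higher and 1 lower. PFKFB3, which makes the activator of phosphofructokinase, was 2.10-fold higher, NDRG1, a hypoxia-induced gene, 1.95-fold and HK1, a hexokinase, 1.88-fold, while EGLN3, an oxygen-sensing prolyl hydroxylase, was 1.88-fold lower. Leaving out any 1 array left 4 to 5 higher calls. The brightest members not called were the glycolytic enzymes ENO1, at 11.86 in siNELF-C and 12.04 in siNELF-A cells (limma adjusted p = 0.401), and LDHA, at 11.52 and 11.62 (limma adjusted p = 0.648).

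**Figure D4:**
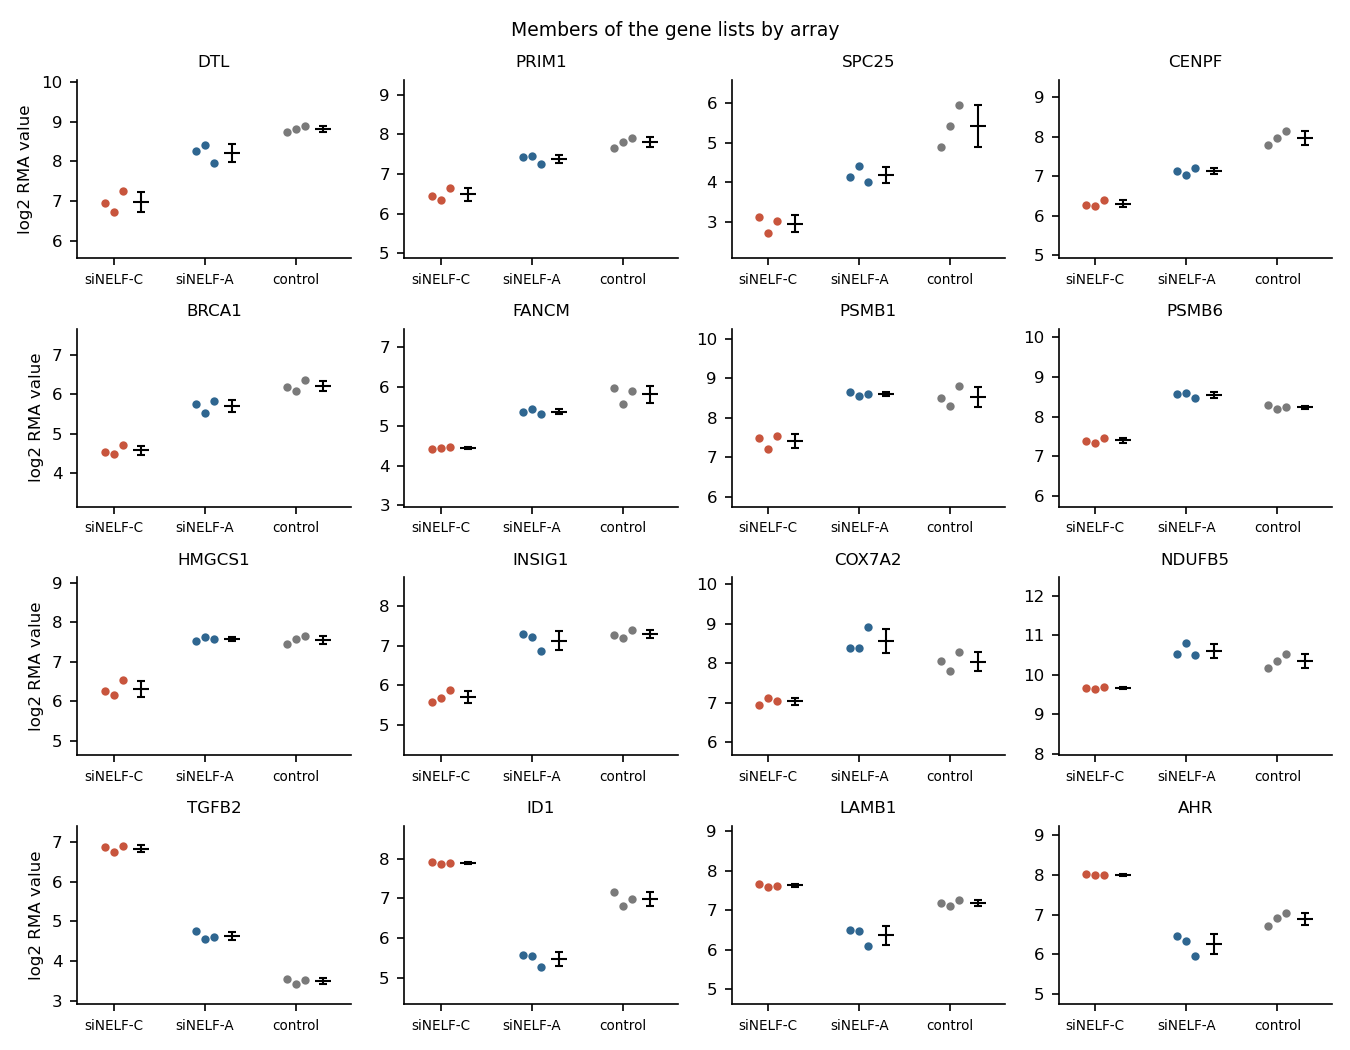
Log2 RMA value of each array (points) with the group mean and SD (bars, n = 3) for 16 genes in siNELF-C, siNELF-A and control cells, every panel spanning the same height in log2 units. Among the groups drawn, DTL to FANCM step down towards siNELF-C with control highest, PSMB1 to NDUFB5 are lowest in siNELF-C, and TGFB2 to AHR are highest in siNELF-C. The siNELF-B arrays, not drawn, averaged 6.78 for COX7A2 (siNELF-C 7.03) and 7.88 for HMGCS1 (siNELF-C 6.31). The siNELF-E arrays, also not drawn, averaged below siNELF-C for DTL (6.21 against 6.97), PRIM1, CENPF, BRCA1 and FANCM, but above it for SPC25 (3.19 against 2.96).

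In the lists of the unfolded protein and ATF4 response, nuclear lamina and transport, and lysosome and autophagy, 16.7%, 20.7% and 20% were called lower. Over all clusters that share was 5.81%. In the unfolded protein and ATF4 list 4 of 24 were lower and 0 higher (10 and 1 at an unadjusted p below 0.05). ASNS, asparagine synthetase (2.09-fold lower), and TRIB3, a pseudokinase that restrains ATF4 (1.95-fold lower), were called in all 6 fits without 1 array, and the list gave 2, 2 or 3 lower calls without siNELF-C replicate 1, 2 or 3 and 2, 2 or 4 without siNELF-A replicate 1, 2 or 3. Of 29 genes of the nuclear lamina and transport list 6 were lower and 1 higher. The exportin XPO4 (1.90-fold lower) and LBR were called in all 6 fits, which gave 3, 2 or 2 lower calls without siNELF-C replicate 1, 2 or 3 and 2, 3 or 7 without siNELF-A replicate 1, 2 or 3. Of 25 lysosome and autophagy genes 5 were lower and 1 higher, but the median difference was 0.15 and only 11 of the 25 differences were negative. Quantile normalization, interquartile scaling and 75th percentile centring each gave 3 higher and 4 lower calls in this list. ATG7, an enzyme of autophagosome formation, was 2.52-fold lower and was the 1 gene of that list called in all 6 fits. The fit without siNELF-A replicate 3 gave 6 lower calls in that list and each of the other 5 fits gave 1.

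The pair of genes for the small subunit of ribonucleotide reductase moved in opposite directions. RRM2B, the p53-inducible form, read 7.59, 7.39 and 7.50 in siNELF-C cells and 6.34, 6.07 and 6.36 in siNELF-A cells, 2.36-fold higher (limma adjusted p = 0.00411). RRM2, the S phase form, read 9.32, 9.37 and 9.66 in siNELF-C cells and 10.35, 10.38 and 10.08 in siNELF-A cells, 1.76-fold lower (limma adjusted p = 0.0187). RRM2 lost its call without siNELF-C replicate 1 or 2 (adjusted p = 0.0735 and 0.0706) and without siNELF-A replicate 1 or 2 (0.062 and 0.0692). Of 22 p53 targets 4 were higher and 2 lower (18.2% and 9.09%), where 2.34% of all clusters were called higher and 5.81% lower. Without siNELF-C replicate 1, 2 or 3 there were 1, 1 or 2 higher, and without siNELF-A replicate 1, 2 or 3 there were 2, 2 or 4. Of 29 immediate early genes 4 were higher and 1 lower (13.8% and 3.45%), with 3 higher without siNELF-A replicate 3 and 1 without any other array. In these lists RRM2B and DUSP6, a phosphatase of ERK (2.13-fold higher), were the genes called in all 6 fits.

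Interferon-stimulated genes gave few calls between the knockdowns. The median level of the 42 measured was 4.37 in siNELF-C cells and 4.31 in siNELF-A cells, beside 5.82 in control cells. DTX3L, a ubiquitin ligase, was called higher and IFIT1, an RNA-binding antiviral protein, lower, 2.38% of the list each, where 2.34% of all clusters were called higher and 5.81% lower. The median difference was 0.03, and 6 were higher and 3 lower at an unadjusted p below 0.05, which 5381 of all 22011 clusters passed in either direction. IFIT1 read 4.13, 4.41 and 4.43 in siNELF-C cells and 5.19, 4.91 and 5.21 in siNELF-A cells, a 1.72-fold fall (limma adjusted p = 0.0208), while control arrays stood at 9.25, 9.20 and 9.58. IFIT1 kept its call without siNELF-A replicate 2 and lost it without any other array (adjusted p = 0.0501 to 0.0747), and DTX3L kept its call without siNELF-C replicate 2 and lost it without any other (0.0533 to 0.0926). PARP9, the partner of DTX3L, averaged 7.77 in siNELF-C and 6.91 in siNELF-A cells and did not pass (limma adjusted p = 0.0505).

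Class I antigen presentation held 2 higher calls of 15, the trimming peptidase genes ERAP1 and ERAP2. ERAP1 read 5.82, 5.69 and 5.87 in siNELF-C cells and 4.28, 4.18 and 3.98 in siNELF-A cells (3.13-fold, limma adjusted p = 0.00228), with 6.29, 6.45 and 6.61 in control cells. ERAP2 averaged 3.42 in siNELF-C and 2.35 in siNELF-A cells, both below the 40th percentile of cluster means (3.89), so no fold is given. Of 26 NF-kB and inflammatory genes limma called 0, with 1 higher and 2 lower at an unadjusted p below 0.05. NFKBIA, the inhibitor of NF-kB, averaged 8.05 in siNELF-C and 7.90 in siNELF-A cells (limma adjusted p = 0.692).

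Luminal markers of the line had a median level of 8.08 in siNELF-C and 8.13 in siNELF-A cells, with 8.90 in control cells. Of the 23 measured, 21 lay at or above the 40th percentile of cluster means. KRT8, a luminal keratin, averaged 12.62 in siNELF-C and 12.87 in siNELF-A cells, GATA3, a luminal transcription factor, 9.01 and 9.10, and ESR1, the oestrogen receptor, 6.32 and 6.48, with 12.33, 9.73 and 7.69 in control cells; GATA3 and ESR1 were named after their values were seen. Of 23 luminal markers CLDN4 and ERBB3 were lower (8.7%, where 5.81% of all clusters were called lower) and 0 were higher (5 and 5 at an unadjusted p below 0.05). CLDN4, a tight junction claudin, lost its call without siNELF-C replicate 1 or 2 (adjusted p = 0.0528 and 0.0591) or siNELF-A replicate 2 (0.0508). Of 32 oestrogen-induced genes 3 were lower (9.38%) and 0 higher (7 and 5 at an unadjusted p below 0.05). STC1, a secreted glycoprotein, was 2.05-fold lower and FKBP4, a co-chaperone of steroid receptors, 1.79-fold lower, and both were called in all 6 fits without 1 array. Lists of markers of other cell types had lower medians, though some members were not dim. Basal markers had a median of 3.88 in siNELF-C and 3.94 in siNELF-A cells, with 5 of 9 at or above the 40th percentile of cluster means. The basal keratin KRT14 averaged 5.06 in siNELF-C and 5.56 in siNELF-A cells, the mesenchymal marker COL1A1 5.89 and 5.48, and the endothelial marker ENG 5.91 and 5.89. The median level over 13 leukocyte markers was 2.40 to 2.59 in siNELF-C cells and 2.42 to 2.67 in siNELF-A cells, and over 10 endothelial markers 2.73 to 2.94 and 2.65 to 2.75. Neither of these lists, nor that of 9 basal markers, held a call (at an unadjusted p below 0.05, 1 basal marker was lower), and FN1 was the 1 call among 15 mesenchymal markers, of which VIM averaged 2.65 in siNELF-C and 2.48 in siNELF-A cells.

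Among 35 pausing and elongation factors, NELFCD included, 1 was higher and 3 lower (2.86% and 8.57%). These shares are near those of all clusters, 2.34% called higher and 5.81% lower, and 1 of the 3 lower calls is the siRNA target itself. POLR2A, the largest subunit of RNA polymerase II, read 7.54, 7.67 and 7.63 in siNELF-C cells and 6.94, 6.63 and 6.73 in siNELF-A cells (1.80-fold higher, limma adjusted p = 0.0105), with 7.42, 7.31 and 7.40 in control cells. SKIC8, a subunit shared by the PAF1 and SKI complexes, was 2.12-fold lower and SUPT4H1, the small subunit of DSIF, 1.57-fold lower (limma adjusted p = 0.0133), the last losing its call without siNELF-C replicate 1, 2 or 3 (0.0539, 0.0501 and 0.0538) or siNELF-A replicate 2 (0.0533), under interquartile scaling (0.0641), and, by falling below 1.5-fold, under quantile normalization and 75th percentile centring. SUPT5H, the large subunit of DSIF, averaged 6.13 in siNELF-C and 5.76 in siNELF-A cells and did not pass (limma adjusted p = 0.144), and like VIM it was named after its values were seen. Integrator subunits form the complex that cleaves nascent RNA at paused polymerases. Of 14 measured, 1 was called higher (7.14%) and 0 lower. It was INTS3 (1.87-fold higher, limma adjusted p = 0.0242), which lost its call without siNELF-C replicate 1, 2 or 3 (0.0814, 0.0742 and 0.0776) or siNELF-A replicate 2 (0.0533).

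The remaining lists are set beside the 2.34% of all clusters called higher and the 5.81% called lower. There was 1 higher and 0 lower among 42 replication-dependent histones (H3C6). Among 20 cyclins, CDK inhibitors and E2F-RB genes 1 was higher and 3 lower (5% and 15%). Nucleotide supply had 1 higher and 3 lower among 16 genes (6.25% and 18.75%). Counts of 0 higher and 2 lower were found among 17 heat shock genes and 26 cytosolic ribosomal proteins, 0 and 3 among 28 splicing factors, 1 and 2 among 25 apoptosis regulators and 0 and 1 among 10 annexins. At an unadjusted p below 0.05 the counts higher and lower were 6 and 2 for the histones, 2 and 7 for the cyclin list and 2 and 8 for nucleotide supply. They were 1 and 6 for the heat shock genes, 1 and 6 for the ribosomal proteins and 0 and 12 for the splicing factors. Apoptosis regulators had 1 and 2 and the annexins 1 and 1. Of the called members of these lists, RRM2B, FKBP4 and ANXA1 were called in all 6 fits without 1 array.

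Exon-level values were tested for usage, which sets the siNELF-C minus siNELF-A difference of a probe set beside that of the rest of its gene. Of 152688 probe sets in 9823 genes, 925 (0.606%) were called with limma's diffSplice, 387 relatively higher and 538 relatively lower in siNELF-C cells. They fell in 804 genes, 715 of which had 1 called probe set, and 234 of the 804 were also called at gene level. Where in its gene a probe set lies is not known here.

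A probe set of PKM (3631984), the gene of pyruvate kinase M, read 7.51, 7.45 and 7.15 in siNELF-C cells and 4.99, 4.58 and 3.51 in siNELF-A cells, while the median of the other probe sets was 10.37 and 10.35. That is a relative difference of 3.09 (limma diffSplice adjusted p = 4.37e-17) in a gene whose gene-level difference was -0.00327. PKM makes 2 known splice forms with mutually exclusive exons, and whether this probe set reads one of them is not known here. In DCTN1, a subunit of dynactin, probe set 2560021 read 1.92, 1.54 and 1.04 in siNELF-C cells and 5.23, 4.61 and 5.12 in siNELF-A cells, with the others at 6.48 and 6.47 (relative difference -3.36). Those siNELF-C values are dim and signal over background was not measured, so the size is uncertain. CTNND1, the catenin p120, had probe set 3331542 at 7.58, 7.68 and 7.02 in siNELF-C cells and 5.26, 4.85 and 4.71 in siNELF-A cells (2.31). The other probe sets of CTNND1 had medians of 8.41 in siNELF-C and 8.23 in siNELF-A cells. PKM and CTNND1 held 2 called probe sets each and DCTN1 held 1.

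AHR was the reverse case, a probe set (2991266) that stayed low while its gene was higher. It read 4.91, 4.88 and 4.89 in siNELF-C cells and 6.30, 5.57 and 5.43 in siNELF-A cells, where the other probe sets had medians of 8.39 and 6.52 (relative difference -2.59). In NELFCD, probe set 3891281 averaged 11.16 in siNELF-C and 11.09 in siNELF-A cells and so did not show the knockdown that the other probe sets did (medians of 5.55 and 8.63). The probe sets of SEC24C (2.51), NAT10 (-2.23), PCNX1 (2.14), COG1 (-2.38) and ADAM15 (-1.72) complete the 10 with the smallest adjusted p. In SEC24C the siNELF-A arrays scattered from 0.88 to 5.40 and overlap the siNELF-C arrays (5.18 to 5.57), so that difference rests on 2 siNELF-A arrays. In NAT10 the siNELF-C arrays scattered from 1.33 to 4.38, below the siNELF-A arrays (5.12 to 6.11).

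**Figure D5:**
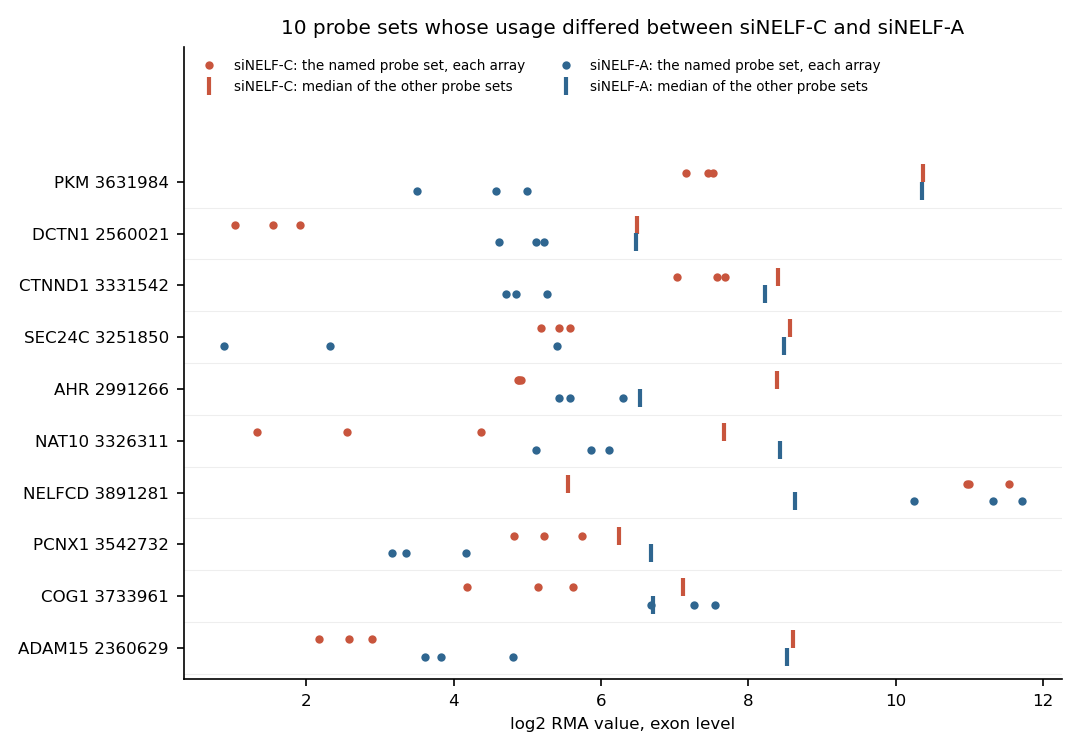
Log2 RMA value at exon level of the 10 named probe sets on each array (points) and the median of the other probe sets of the gene (vertical ticks), siNELF-C in red above siNELF-A in blue. For PKM the ticks coincide (10.37 and 10.35) while the points are apart, and for NELFCD the points overlap near 11 while the ticks are apart.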

How the data were processed

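RNA of T47D cells was measured on Affymetrix exon arrays. Per the labels, the authors' deposited values are log2 RMA expression values from the ArrayAssist software, core exons, genome build hg18, at gene level and at exon level, 15 arrays each. They were used as deposited. Groups and replicate numbers follow the labels; precision is limited by how few arrays there are. Symbols came from the platform annotation, updated through RefSeq. Of 22011 clusters, 14432 had 1 symbol, 2408 several and 5171 were not listed, and only the first kind are named, by the brightest cluster of a symbol.

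A mean per group was fitted to the 6 arrays with lmFit and eBayes (R 4.3.3, limma 3.58.1), with Benjamini-Hochberg adjustment over all clusters. Calls needed an adjusted p below 0.05 and 1.5-fold. No fold is given where both means lie below 3.89, the 40th percentile of cluster means. Usage was tested with diffSplice on probe sets at or above the 25th percentile of means in genes at or above the 40th, with 3 or more probe sets and 1 symbol. The fits were tested on simulated data. Alternatives were fits on 15 and 12 arrays, the replicate number as a block, other scalings, a level filter, other thresholds, eBayes with trend and robust, exon-level medians and leaving out each array.

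Named genes are the 15 highest and 15 lowest calls whose arrays do not overlap and whose higher mean reaches the 40th percentile, up to 6 called and 2 bright uncalled members per list, and 10 probe sets. The members, lists and rule were chosen with earlier results of these data known. Promoters and their motifs come from RefSeq (GRCh38.p14); 30 of 35 called cell division and repair genes had one.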

Additional observations from a re-analysis of the deposited data

How the results depend on the processing

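The count of 1795 calls moved with the arrays in the fit and with the fold asked for. A fit on all 15 arrays gave 631 calls (266 higher, 365 lower) and a 2-fold minimum gave 589 (200 and 389). Leaving out 1 array gave 724 to 1792 calls, 215 to 402 higher and 495 to 1396 lower. Median centring gave 581 higher and 1289 lower and the 12 arrays without siNELF-B 633 and 1556. Other scalings moved both sides. Higher calls rose to 787 after quantile normalization, 753 after interquartile scaling and 925 after 75th percentile centring, and lower calls fell to 986, 1059 and 869. The luminal list, with 0 higher calls as deposited, had 2 or 3 under these 3 scalings, the histones 4 or 5 in place of 1 and the interferon list 2 to 4 in place of 1. The causes of these shifts were not tested. Deviations of same-numbered arrays correlated at -0.04, -0.09 and -0.02, so no pairing by replicate number was seen. With 3 arrays per group this cannot exclude a shared culture or day, and the labels do not say what the numbers mark. With the replicate number as a block there were 644 calls, 223 higher and 421 lower. Under that block limma left no DNA replication call (DTL adjusted p = 0.0503, PRIM1 0.0552), 3 mitosis calls, 2 proteasome calls and 4 higher matrix calls. The NELFCD difference kept its call under every alternative run. No called difference of a named gene reversed under an alternative run for it, but many weakened. In the fit on 15 arrays 74 were weaker and 67 held, and with the replicate block 69 and 72. By exon-level medians 28 were weaker and 109 held. At exon level INSIG1 (limma adjusted p = 0.0573) and TGFB3 (0.0866) did not pass. The 15 highest and 15 lowest kept their calls, except that GPR63 was not tested under the level filter and GJA1 not at exon level. The 925 probe sets of differing usage became 212 with 15 arrays, 2166 with 12 arrays, 558 with the replicate block and 587 to 925 without 1 array. Of the 1795 called clusters, 92 had both means below 3.89, near the dim end where signal over background was not measured. Without any 1 array, 578 clusters held.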

Other observations

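Families picked by symbol after the values were seen added to the genes lower in siNELF-C cells. Of 65 mitochondrial ribosomal proteins, 26 were called lower and 0 higher in limma (40%, where 5.81% of all clusters were called lower), and 61 of the differences were negative (median -0.54). At an unadjusted p below 0.05, 47 were lower and 0 higher. MRPS17, a subunit of the small mitochondrial ribosome, read 7.38, 7.43 and 7.39 in siNELF-C cells and 9.13, 9.41 and 8.98 in siNELF-A cells, with a control mean of 8.30 between them (3.42-fold lower, limma adjusted p = 0.00229). MRPL50, of the large subunit, read 5.13, 5.37 and 5.23 in siNELF-C cells and 6.40, 6.38 and 6.28 in siNELF-A cells (2.16-fold lower, limma adjusted p = 0.00411). There were 10, 10 or 13 lower calls without siNELF-C replicate 1, 2 or 3 and 10, 13 or 29 without siNELF-A replicate 1, 2 or 3, with 8 genes called in all 6 of these fits. A fit on 15 arrays left 4, and quantile normalization and 75th percentile centring left 16 each.

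Nucleoporins, which build the nuclear pore, gave 8 lower calls and 0 higher among 19 (median -0.55), with 12 lower and 2 higher at an unadjusted p below 0.05. NUP155 of the inner ring read 7.09, 6.73 and 7.22 in siNELF-C cells and 8.30, 8.33 and 8.02 in siNELF-A cells (limma adjusted p = 0.00929), and NUP54 of the central channel averaged 3.57 in siNELF-C cells and 4.97 in siNELF-A cells (2.63-fold lower, limma adjusted p = 0.00618). Of 10 exosome subunits, which degrade RNA, 4 were lower and 0 higher, and all 10 differences were negative as deposited (at an unadjusted p below 0.05, 7 lower and 0 higher). The nucleoporins gave 2, 4 or 6 lower calls without siNELF-C replicate 1, 2 or 3 and 4, 2 or 8 without siNELF-A replicate 1, 2 or 3. The exosome gave 2, 1 or 1 lower calls without siNELF-C replicate 1, 2 or 3 and 3, 3 or 4 without siNELF-A replicate 1, 2 or 3. Under quantile normalization 1 nucleoporin was called higher and 6 lower. A fit on 15 arrays gave 1 lower call in each family.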
